A study of Mus musculus with 80 samples.

Results

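The Cyp4a genes encode a family of microsomal cytochromes P450 of the mouse, and this account follows the 6 of them that carry the symbols Cyp4a10, Cyp4a14, Cyp4a31, Cyp4a32, Cyp4a12a and Cyp4a12b through a fast. They were taken by symbol from the 78275 genes of a table of liver read counts, and all 6 passed the filter on low counts. The family was selected on its fasting response, Cyp4a14 being among the largest rises in these livers, so the fasting values of the family are given as a description, without a test.

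Cyp4a enzymes add a hydroxyl group to the terminal (omega) carbon of medium- and long-chain fatty acids and of arachidonic acid. The omega-hydroxy acid is then oxidised to a dicarboxylic acid by alcohol and aldehyde dehydrogenases and shortened in peroxisomes, which gives the liver a route beside mitochondrial beta-oxidation. Cyp4a10 and Cyp4a14 are classical targets of PPARα, the nuclear receptor that senses fatty acids in the fasted liver, whereas Cyp4a12a and Cyp4a12b are known for their male-biased expression, which depends on androgens and growth hormone.

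All livers came from C57BL/6J mice (genotype given as C57BL/6) on a chow diet, bought at 8 to 12 weeks of age and kept in groups of 4 under 12 h of light and 12 h of darkness before a move to constant darkness. The control mice ate ad libitum throughout, and the fasted mice lost their food at circadian time (CT) 10. Livers were taken every 4 h from CT8 to CT44, from 2 males and 2 females of each treatment at each of the 10 times, which gave 80 libraries. At CT8 no mouse had yet lost its food, and at CT44 the fast had lasted 34 h. No cage numbers are given, so the p-values below measure the spread between mice of a group, some of which may have shared a cage.

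Total counts lay between 25534901 and 59927771 per library. Sex, as read from Xist and Ddx3y, went with the library titles in 80 of 80 libraries. No library repeated the other of its treatment, time and sex, the only pairs compared. The 6 hepatocyte markers summed to between 61920 and 134300 CPM (counts scaled to a common library size), and the 6 kidney markers, an organ rich in Cyp4a enzymes, to at most 0.198 CPM, with 2 of the 6 at 0 in every library. Markers of some other cells were lower in fasted livers by the median of their summed CPM. It was 23.7 against 39.1 for cholangiocytes, 223 against 291 for Kupffer cells and 102 against 157 for red blood cells. Lymphocytes and neutrophils had 13.7 against 18.4 and pancreas 4.70 against 10.2. Endothelial markers had 269 against 261 CPM, stellate cell markers 259 against 270 and adipose markers 0.069 against 0. The hepatocyte median was 98210 against 88010 CPM, and the part of these shifts in the results was not tested. One library, female 2 of the controls at CT8, stood apart with 31.3% of its reads on a ribosomal RNA gene, Rn18s-rs5, against at most 4.88% in the other 79.

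The sequences set the limits of what can be told apart. The 6 genes lie side by side on chromosome 4 (GENCODE M21 on GRCm38, while the labels name GRCm39 as the build of the counts), Cyp4a12a at chr4:115299046-115332815, Cyp4a12b at chr4:115411624-115439034, Cyp4a14 at chr4:115486200-115496142 on the minus strand, Cyp4a10 at chr4:115518264-115533649, Cyp4a31 at chr4:115563649-115579015 and Cyp4a32 at chr4:115600969-115621602. All but Cyp4a14 are on the plus strand. The coding stretch around the cysteine that binds the heme iron, the catalytic centre of every cytochrome P450, shows how alike they are. It lies in the coding exons, at coding bases 1336 to 1380 of Cyp4a10, and capitals mark the bases that differ from Cyp4a10:
Cyp4a10: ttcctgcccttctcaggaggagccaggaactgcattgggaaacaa
Cyp4a31: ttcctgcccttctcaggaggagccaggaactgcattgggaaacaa
Cyp4a32: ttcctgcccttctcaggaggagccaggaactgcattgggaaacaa
Cyp4a12a: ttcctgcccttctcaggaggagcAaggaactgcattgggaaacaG
Cyp4a12b: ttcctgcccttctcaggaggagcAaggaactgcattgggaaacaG
Cyp4a14: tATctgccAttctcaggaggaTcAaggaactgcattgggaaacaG

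Over the whole coding sequence, Cyp4a10 was 97.2% identical to Cyp4a32 and 96.6% to Cyp4a31, Cyp4a12a was 98.5% identical to Cyp4a12b, and Cyp4a14 was 75.1% to 75.8% identical to the other 5. A read of 76 bases can therefore fall where a gene and its neighbour do not differ. Such windows made up 40.6% of the Cyp4a12a transcript and 41.1% of that of Cyp4a12b, 29.9% of Cyp4a32, 18.7% of Cyp4a10, 13.1% of Cyp4a31 and 0% of Cyp4a14. The counts of Cyp4a14 thus share no such window, and those of the near-identical groups are uncertain in how reads were divided. These windows are those of single reads. The libraries were paired-end, and the share of read pairs that fit several genes was not worked out. The windows of 76 bases in which the near-identical genes differ most follow, with capitals at each base not shared by all. For Cyp4a10, Cyp4a31 and Cyp4a32 they are coding bases 186 to 261, with 11 such bases:
Cyp4a10: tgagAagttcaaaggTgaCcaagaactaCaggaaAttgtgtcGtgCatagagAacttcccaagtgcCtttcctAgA
Cyp4a31: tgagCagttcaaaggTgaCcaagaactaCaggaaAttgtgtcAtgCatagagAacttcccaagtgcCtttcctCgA
Cyp4a32: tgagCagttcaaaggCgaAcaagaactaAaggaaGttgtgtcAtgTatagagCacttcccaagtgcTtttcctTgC
For Cyp4a12a and Cyp4a12b they are coding bases 675 to 750, with 6 such bases:
Cyp4a12a: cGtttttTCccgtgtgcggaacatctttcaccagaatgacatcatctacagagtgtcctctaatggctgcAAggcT
Cyp4a12b: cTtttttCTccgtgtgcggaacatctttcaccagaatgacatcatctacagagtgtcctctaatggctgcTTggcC

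Cyp4a14 was the member with the largest change between control and fasted livers. In control livers from CT12 to CT44 it lay between 14.5 and 291 CPM in the 18 males (median 66.5) and between 164 and 1069 CPM in the 18 females (median 412). In fasted livers of the same times it reached 78.4 to 11980 CPM in the 18 males (median 7439) and 273 to 12910 CPM in the 18 females (median 8565). At every one of the 9 times the fasted mice of a sex lay above the control mice of that sex, 2 against 2. How many of all genes do so was not worked out. The single gene took up to 1.08% of all counts in a fasted male and 1.31% in a fasted female, against at most 0.0300% and 0.111% in the controls. In bulk liver, more RNA per cell and more cells that express a gene cannot be told apart.

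The mean fasting effect, fasted minus control over CT12 to CT44 with both sexes weighted equally, was 4.91 ± 0.19 (log2 ± SE) for Cyp4a14, or 30.1-fold, the 10th largest rise among 21187 genes tested. It was 3.63 ± 0.12 for Cyp4a10, 3.48 ± 0.15 for Cyp4a31 and 2.05 ± 0.10 for Cyp4a32. Cyp4a12b had a value of 0.83 ± 0.18 and Cyp4a12a of 0.04 ± 0.19, with sexes of very unlike levels behind both means. The family thus ran from a change of 30.1-fold to one within its standard error of 0. Among all genes tested, 29.5% were higher and 32.9% lower in the fasted livers at an adjusted p under 0.05, and the median change was -0.02. All 4 fasted mice lay above all 4 controls at each of the 6 times from CT24 to CT44 for Cyp4a14, Cyp4a10, Cyp4a31 and Cyp4a32, which held for 1.89% of all genes, and for neither Cyp4a12 gene.

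**Figure D1:**
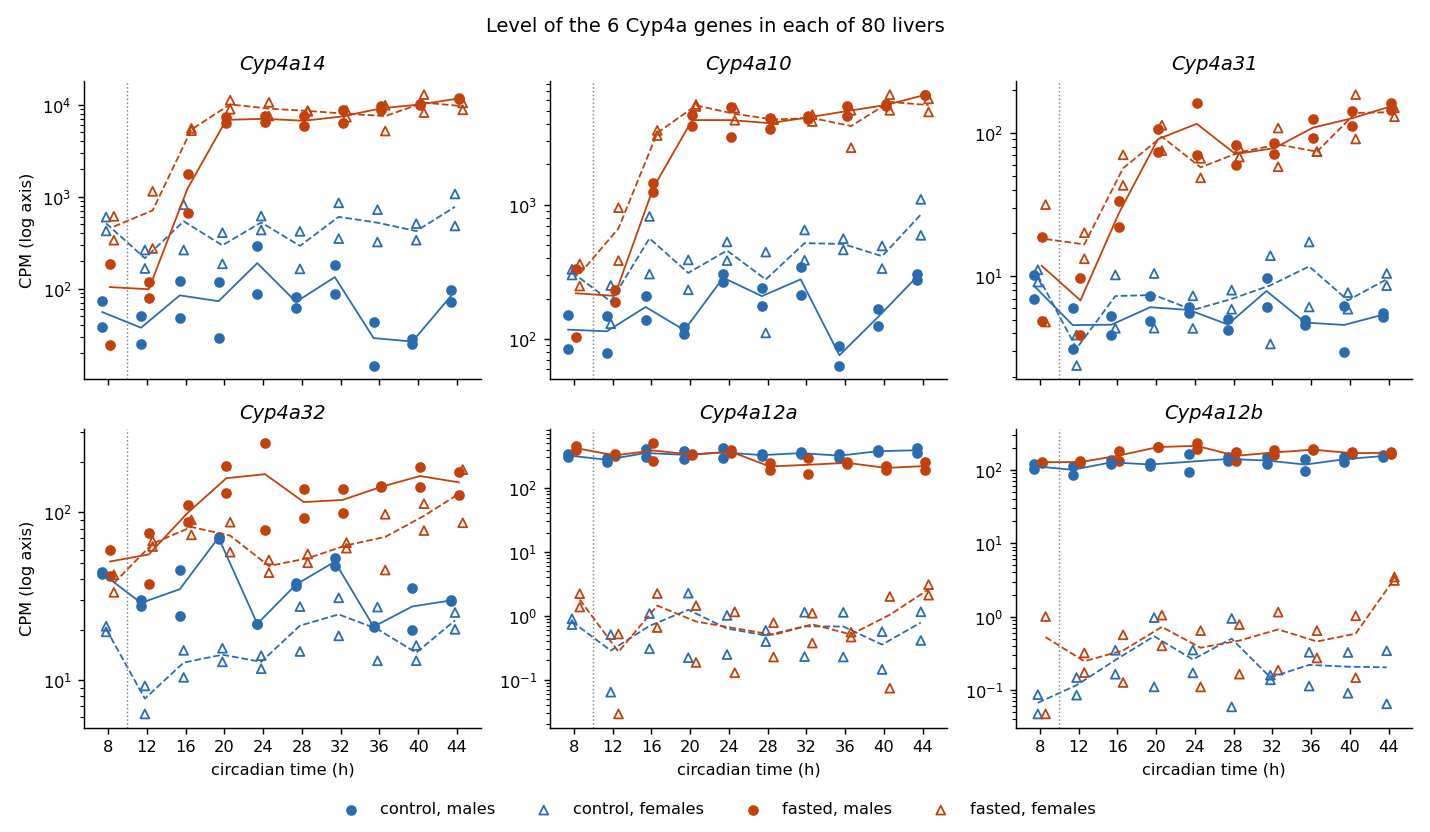
Level of each Cyp4a gene in CPM (log axis) against circadian time in h, 1 point per mouse (circles, males; open triangles, females; blue, control; orange, fasted), with lines through the means of 2 mice and a dotted line at CT10, when food was removed. Cyp4a14, Cyp4a10 and Cyp4a31 climb between CT12 and CT20 and stay high, while Cyp4a12a and Cyp4a12b separate by sex, with 85.98 to 506 CPM in males and at most 3.46 CPM in females from CT12 on.

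The climb began within hours. At CT12, 2 h after food was removed, Cyp4a14 stood at 78.4 and 118 CPM in the fasted males and at 1143 and 273 CPM in the fasted females, against 49.9 and 25.0 CPM in control males and 165 and 262 CPM in control females. By CT16 the fasted males had 1781 and 665 CPM, whereas the fasted females already had 5225 and 5538 CPM. At CT20, after 10 h, the males had 6319 and 7393 CPM and the females 11230 and 8951 CPM. The sexes, 2 mice of each, did not overlap at CT16 or CT20, females being higher at both, a gap not set against all genes. From CT20 on the means of the 4 fasted mice stayed between 7635 and 10690 CPM, the highest of them at CT44.

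Cyp4a10, the other classical PPARα target of the family, followed the same course at a lower ceiling. Fasted males had 231 and 190 CPM at CT12, 1239 and 1450 at CT16 and 3870 and 4693 at CT20. Fasted females had 954 and 385 CPM at CT12, 3589 and 3284 at CT16 and 5597 and 5410 at CT20. The controls of these times never exceeded 821 CPM. Over CT12 to CT44 the median was 173 CPM in control males and 418 CPM in control females, and it was 4497 and 4514 CPM in fasted males and females.

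Cyp4a31, a near copy of Cyp4a10, was rare in control livers, with medians of 5.28 CPM in males and 6.72 CPM in females. In fasted livers the medians were 83.9 and 73.9 CPM, and the highest mouse, a female, had 185 CPM. Its mean over the 4 fasted mice was 11.7 CPM at CT12, 42.2 CPM at CT16 and 146 CPM at CT44. Only at CT12 did a fasted male, at 3.93 CPM, fall among the controls of its sex and time. With 13.1% of its windows shared, whether reads of Cyp4a10 enter the values of Cyp4a31 was not tested.

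Cyp4a32, the member closest to Cyp4a10 in sequence, had a flatter response. Its fasting effect was 2.01 ± 0.29 (log2 ± SE) at CT12 and lay between 1.30 ± 0.28 at CT32 and 2.65 ± 0.29 at CT40, while that of Cyp4a14 ran from 1.56 ± 0.50 at CT12 to 6.61 ± 0.62 at CT40. The change of Cyp4a32 at CT12 thus already lay within the range of its later values. Control males had a median of 30.1 CPM and fasted males of 134 CPM, and the females had 14.9 and 66.8 CPM. The widest pair was that of the fasted males at CT24, with 260 and 78.6 CPM.

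**Figure D2:**
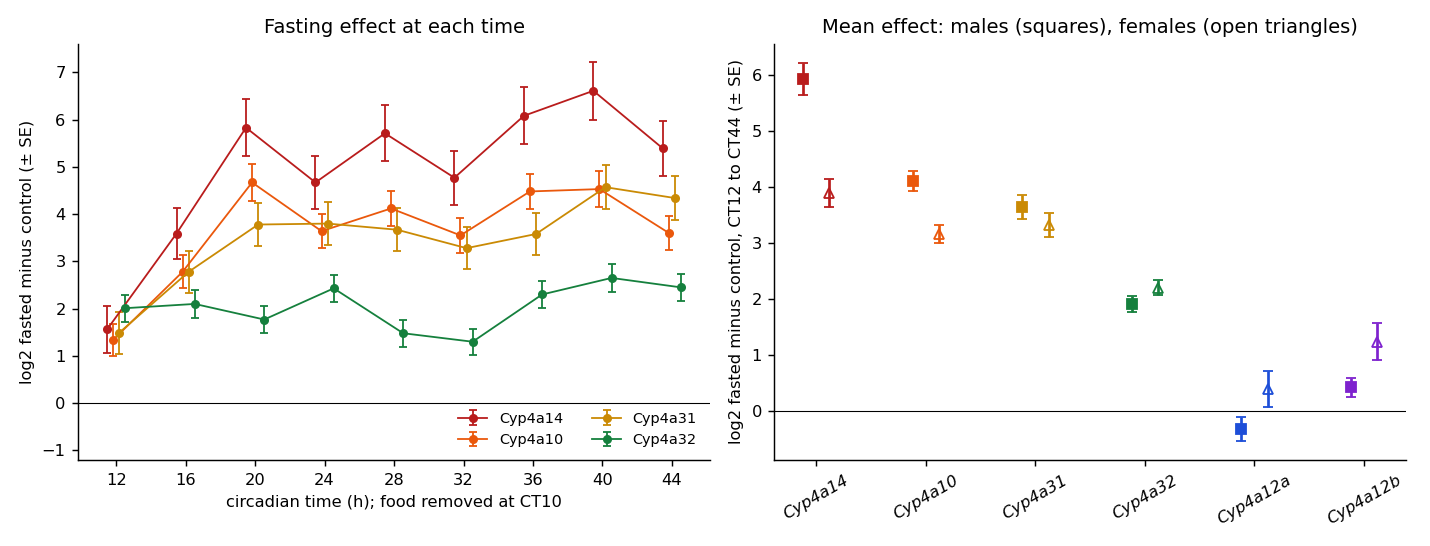
Left, fasted minus control in log2 (± SE from the edgeR fit, 2 males and 2 females per treatment) against circadian time in h for 4 genes. Right, the mean of CT12 to CT44 in males (filled squares) and females (open triangles) for all 6, where Cyp4a14 has 5.93 in males and 3.89 in females.

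Whether the fasting response differed between the 9 times was tested jointly, on differences between times with their mean left out. The family was picked for its rise in these same libraries, and a large rise that builds up over hours also differs between times. The p-values for time are therefore not free of that selection. The response differed for 4 of the 6 genes, Cyp4a10 (adjusted p = 6.18e-06), Cyp4a14 (1.23e-05), Cyp4a31 (0.00402) and Cyp4a32 (0.0452), as for 33.7% of all genes. The call was lost without either male replicate for Cyp4a31 (adjusted p = 0.247 and 0.115), and for Cyp4a32 in 3 of the 4 fits without a replicate set (0.122 to 0.362). The response in the last 3 times (CT36 to CT44) was then set against that in the first 3 (CT12 to CT20), which are the same phases of the day. It had grown by 2.37 ± 0.40 (log2 ± SE) for Cyp4a14 (adjusted p = 2.65e-05), by 1.27 ± 0.27 for Cyp4a10 (0.000525) and by 1.48 ± 0.34 for Cyp4a31 (0.00149). These are 3 of 6 members, where 9.91% of all genes had a response more positive late and 11.3% one more positive early. Cyp4a32, with 0.51 ± 0.23 (adjusted p = 0.108), Cyp4a12a and Cyp4a12b did not pass. Without male replicate 1 at every time, Cyp4a10 and Cyp4a31 no longer passed (adjusted p = 0.062 and 0.0922).

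The growth of the response was also fitted in each sex, with p-values that are likewise not free of the selection on the rise. Fitted alone, males gave 4.07 ± 0.60 for Cyp4a14 (adjusted p = 6.77e-05), 2.25 ± 0.31 for Cyp4a10, 2.36 ± 0.40 for Cyp4a31 and 1.35 ± 0.31 for Cyp4a32, all past the threshold, where 4.35% of all genes were more positive late and 4.88% more positive early. Females alone gave 0.68 ± 0.50, 0.31 ± 0.42, 0.63 ± 0.52 and -0.33 ± 0.30, and none passed, where 6.91% of all genes were more positive late and 6.27% more positive early. The difference itself, females minus males, was -3.41 ± 0.80 for Cyp4a14 (adjusted p = 0.0371), and 0.241% of all genes passed in that direction. The controls moved as well, and their part in this difference was not tested. Control males had a mean log2 CPM of 5.14, 6.24 and 5.87 at CT12, CT16 and CT20. At CT36, CT40 and CT44 they had 4.65, 4.73 and 6.36. Control females had 7.70, 8.85 and 8.10, and later 8.91, 8.69 and 9.48. Among the 6, a steeper growth of fasted minus control in males was called by edgeR only for Cyp4a14. For Cyp4a10 (-1.96 ± 0.54, adjusted p = 0.07), Cyp4a32 (-1.69 ± 0.45, 0.0645) and Cyp4a31 (-1.75 ± 0.69, 0.21) it did not pass. This last test was added after the sexes had been seen apart, and limma voom gave Cyp4a14 an adjusted p of 0.0618, and each of the 4 fits without a replicate 0.0626 to 0.636.

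Control livers differed by sex in 5 of the 6 genes, and in both directions. Over the 10 control times Cyp4a14 was higher in females by 2.75 ± 0.23 (log2 ± SE), or 6.72-fold (adjusted p = 1.56e-13), and Cyp4a10 by 1.30 ± 0.15 (9.51e-10). Among all genes 20.6% passed as higher in females and 18.6% as higher in males. Cyp4a32 went the other way, with -1.07 ± 0.13 for females minus males (adjusted p = 2.05e-09), at a median of 14.9 CPM in control females and 30.1 CPM in control males. Its excess in males was widest at CT20, where the control males had 71.8 and 69.8 CPM and the control females 15.5 and 12.8 CPM. Cyp4a31 had 0.41 ± 0.19 and did not pass (adjusted p = 0.0909). When the counts of Cyp4a10, Cyp4a31 and Cyp4a32 were summed, the sum was higher in females by 1.04 ± 0.14, but Cyp4a32 held only 4.05% of these reads in control females and 17.4% in control males from CT12, so the sum mainly follows Cyp4a10. Whether the division of shared reads bears on the male excess of Cyp4a32 was not tested.

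Cyp4a12a and Cyp4a12b, the androgen-dependent members, were male genes in these livers. Control males from CT12 had 255 to 427 CPM of Cyp4a12a (median 343) and 86.0 to 163 CPM of Cyp4a12b (median 128). Control females had 0.0639 to 2.26 CPM (median 0.460) and 0.0590 to 0.970 CPM (median 0.162), which are 3 to 105 reads and 3 to 45 reads. The fitted difference was -9.10 ± 0.30 for Cyp4a12a (adjusted p = 2.32e-28) and -9.17 ± 0.25 for Cyp4a12b (9.99e-32). All 20 control males lay above all 20 control females for both, as for 0.684% of all genes, and no member met the reverse, which 0.415% of all genes did.

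Per kb of exon, the control male liver was led by Cyp4a12a, with 142 ± 20.3 CPM per kb (SD, n = 18 from CT12), ahead of Cyp4a10 with 89.4 ± 41.0, Cyp4a12b with 53.6 ± 9.54, Cyp4a14 with 31.1 ± 25.9, Cyp4a32 with 23.3 ± 10.5 and Cyp4a31 with 2.14 ± 0.614. Neighbours from Cyp4a10 to Cyp4a32 lay within the larger of their SDs. The control female liver was led by Cyp4a10 with 216 ± 115 and Cyp4a14 with 179 ± 99.1 CPM per kb, which overlapped, and Cyp4a32 followed with 10.9 ± 4.48. Over all fasted livers from CT12 Cyp4a14 had the highest mean in both sexes, with 2578 ± 1446 CPM per kb in males and 2972 ± 1257 in females, before Cyp4a10 with 1886 ± 943 and 2022 ± 773, and the ranges of mean ± SD overlapped. This order did not hold early in the fast. At CT12 Cyp4a12a led in fasted males, with 134 CPM per kb against 99.9 for Cyp4a10 and 37.8 for Cyp4a14 (means of 2 mice), and at CT16 Cyp4a10 led with 637 against 470 for Cyp4a14. In fasted females Cyp4a10 led at CT12, with 318 against 272, and Cyp4a14 from CT16 on. The gene model of Cyp4a32 holds hardly any sequence beyond its coding bases, so its level per kb is on a shorter base than the rest.

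Cyp4a14 and Cyp4a10 rose less in females, from a higher control level, than in males. The fasting effect of Cyp4a14 was 5.93 ± 0.28 in males and 3.89 ± 0.26 in females (log2 ± SE), and the difference of -2.05 ± 0.33 passed (adjusted p = 4.12e-05). For Cyp4a10 the effects were 4.11 ± 0.17 and 3.16 ± 0.17, and the difference of -0.95 ± 0.22 passed as well (0.00295). Across all genes, 7.02% had a response more positive in males and 5.35% one more positive in females. The responses of Cyp4a31 (3.64 ± 0.22 and 3.32 ± 0.21, adjusted p = 0.514) and Cyp4a32 (1.91 ± 0.13 and 2.20 ± 0.14, 0.326) were not shown to differ, nor were those of Cyp4a12a (0.235) and Cyp4a12b (0.139). The call for Cyp4a10 was lost without either male replicate, at adjusted p = 0.149 and 0.0656.

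Within fasted livers alone, females minus males was 0.65 ± 0.23 for Cyp4a14 (adjusted p = 0.0212) and 0.34 ± 0.15 for Cyp4a10 (0.077), while Cyp4a32 kept its male excess at -0.78 ± 0.13 (5.29e-06). Higher in females were 19.0% of all genes and higher in males likewise 19.0%. Cyp4a12a and Cyp4a12b also passed, at -8.43 ± 0.31 and -8.21 ± 0.24. The remaining female excess of Cyp4a14 was uneven over time, with group means that differed by 2.54 at CT12, 2.31 at CT16, 0.55 at CT20 and -0.36 at CT36.

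**Figure D3:**
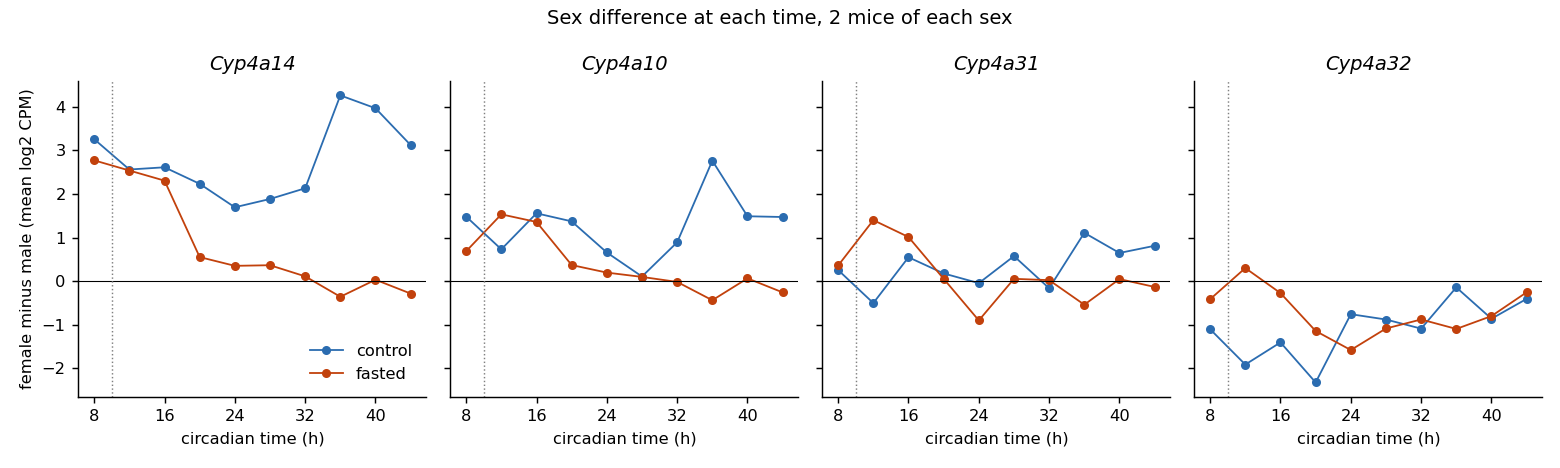
Mean log2 CPM of 2 females minus that of 2 males at each circadian time (h), for control (blue) and fasted (orange) mice, without error bars since each point rests on 2 mice per sex. For Cyp4a14 the control points lie between 1.69 and 4.26 and the fasted points fall from 2.77 at CT8 to -0.29 at CT44, while Cyp4a32 lies below 0 at every time but CT12 in fasted mice.

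Fasted males shifted the balance between both Cyp4a12 genes. Cyp4a12a had a median of 343 CPM in control males and 261 CPM in fasted males, and Cyp4a12b 128 and 176 CPM. Up to CT24 the mean of Cyp4a12a in fasted males was 1.01 to 1.17 times that in control males, and from CT28 on it was 0.547 to 0.772 times. All fasted males lay below all control males at the 5 times from CT28 on, 2 mice against 2 at each. The share of all genes that do the same was not worked out. Before food removal, at CT8, the males of the fasted group had been above the control males, with 457 and 387 against 340 and 305 CPM. At CT40, for example, the fasted males had 219 and 193 CPM and the control males 365 and 388 CPM. Tested in males alone, the late response of Cyp4a12a was lower than the early one by -0.81 ± 0.20 (log2 ± SE, adjusted p = 0.0109). With both sexes the value was 0.03 ± 0.45 and did not pass, and the female part of that mean rests on counts near 0. Cyp4a12b in males gave -0.12 ± 0.17 (adjusted p = 0.749).

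Cyp4a12b made up 27.2% ± 2.17 (SD, n = 18) of the reads of both Cyp4a12 genes in control males from CT12 and 38.8% ± 6.58 in fasted males. Fasted males had 28.2% and 28.1% at CT12, 38.7% and 37.2% at CT20 and 40.9% and 46.7% at CT44, against 25.7% and 31.3% in the control males of CT44. From CT20 on, every fasted male lay above every control male. Before food removal, at CT8, the males of the fasted group had 22.0% and 24.4% and the control males 26.2% and 25.1%. With 40.6% and 41.1% of their windows shared, these shares depend on how reads common to both genes were handled, which is not given in the sources used here.

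**Figure D4:**
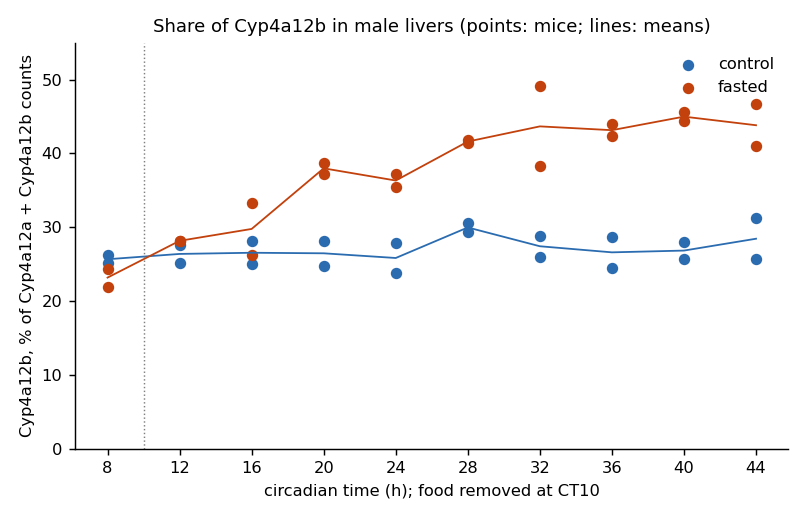
Cyp4a12b counts as a percentage of the summed counts of Cyp4a12a and Cyp4a12b in each male liver (points; lines, mean of 2 mice) against circadian time in h, from an axis that starts at 0. Control males (blue) stay between 23.9% and 31.3% from CT12 on, and fasted males (orange) lie between 35.5% and 49.1% from CT20 on.

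In female livers Cyp4a12b was highest at CT44 of the fast, while Cyp4a12a had similar low levels at other times. At CT44 the fasted females had 2.10 and 3.07 CPM of Cyp4a12a (62 and 99 reads) and 3.46 and 3.11 CPM of Cyp4a12b (102 and 100 reads), where the control females had 1.16 and 0.412 CPM and 0.343 and 0.0651 CPM. Outside the late fast, single females reached 2.26 CPM of Cyp4a12a (control, CT20), 2.24 CPM (fasted, CT16) and 2.22 CPM (CT8, before food removal). At CT40 a fasted female had 1.03 CPM of Cyp4a12b and the other 0.147 CPM. The fasted males of CT44 had 253 and 188 CPM of Cyp4a12a and 175 and 165 CPM of Cyp4a12b, so the levels in females remained far below those in males.

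At CT8, with food still present in both groups, 0 of 6 members passed between them by edgeR, as against 1.33% of all genes. Cyp4a14 had a difference of 0.40 ± 0.48, Cyp4a10 of 0.43 ± 0.33, Cyp4a31 of 0.66 ± 0.42, Cyp4a32 of 0.57 ± 0.28 and the Cyp4a12 genes of 0.79 ± 0.53 and 1.51 ± 0.67. All 6 values were positive with every library in, but those of Cyp4a14, Cyp4a10 and Cyp4a31 changed sign when a replicate set was left out. They were -0.85 for Cyp4a14 and -0.28 for Cyp4a10 without male replicate 2, and -0.37 for Cyp4a31 without female replicate 1. Cyp4a12b fell to 0.09 without female replicate 1 and passed, at 1.84 (adjusted p = 0.0104), without female replicate 2. With every library in, 2 of the 6, those of Cyp4a32 and Cyp4a12b, had an unadjusted p of 0.046 and 0.0291. No member passed by limma voom or DESeq2 either, whereas 4 did without a filter on low counts.

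A rhythm of 24 h was sought in the 40 control livers. By edgeR, limma voom and DESeq2 0 of 6 members passed, where by edgeR 47.4% of the 17084 genes tested did. The fitted swing from trough to peak was 1.05 for Cyp4a14 (log2, adjusted p = 0.104, unadjusted 0.0576), with its peak at CT 1.1, and 0.74 for Cyp4a10 (0.122, unadjusted 0.0706), with its peak at CT 23.3. No member had an unadjusted p under 0.05. In males alone the swings were 1.88 for Cyp4a14 (adjusted p = 0.0457) and 1.24 for Cyp4a10 (0.0464), 2 of 6 members where 33.1% of all genes passed, a share near that background. In females alone they were 0.21 and 0.62, neither of which passed, where 29.1% of all genes did. Whether the sexes differ in rhythm was not tested.

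Mice of a group that were high for one member tended to be high for others. After the mean of each treatment, time and sex was removed, Cyp4a10 and Cyp4a14 had a Pearson r of 0.75 (Spearman rho 0.73) over 80 livers, with a permutation p of 2e-05 and 1e-05, the latter the smallest that 100000 resamples can give, and an adjusted p of 0.00015 for both. These genes share no window of 76 bases. Of the 15 pairs of members, 7 passed by r and by rho, the 6 among Cyp4a10, Cyp4a14, Cyp4a31 and Cyp4a32 with r from 0.34 to 0.75, and Cyp4a12a with Cyp4a12b (r = 0.65, permutation p = 0.00035, adjusted p = 0.00175). The 8 pairs of a Cyp4a12 gene with another member had r from -0.13 to 0.10 and did not pass. Some pairs that passed share windows of 76 bases, 20.4% of those of Cyp4a32 with Cyp4a10 and 40.6% of those of Cyp4a12a with Cyp4a12b. Whether shared reads bear on these r was not tested, and how many pairs of other genes pass was not worked out. Leaving out the 2 livers farthest from the median of the first member, with their partners, left the r of Cyp4a10 and Cyp4a14 at 0.75 and all 7 pairs past the threshold. In the 40 control livers alone that r was 0.71 (permutation test, adjusted p = 0.00555) and in the 36 fasted livers alone 0.63 (0.487).

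Exon bins were counted in the same libraries, so they give no separate support for the fasting effect. They describe how evenly it lay along each gene, over 16 fasted and 16 control mice of each sex (CT12 to CT44 without CT40). The 13 bins of Cyp4a14 with enough reads agreed closely, from 5.91 to 6.13 in males and from 3.85 to 4.14 in females (log2 of the ratio of mean CPM). The 15 bins of Cyp4a10 ran from 3.27 to 4.40 in males, and the 14 bins of Cyp4a32 from 1.18 to 1.80. The widest range was that of Cyp4a31 in males, from 1.81 to 4.00 over 16 bins around a median of 3.70. The bins of Cyp4a12a in males lay between -0.36 and -0.28 and those of Cyp4a12b between 0.29 and 0.44, so that no bin of either gene crossed 0 in males.

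The rest of the pathway was read from lists that leave out the 6 members. Of 27 tested target genes of PPARα, 26 rose with fasting and 1 fell, with a median change of 1.19 (log2) against -0.02 over all genes. Among all genes 29.5% rose and 32.9% fell. The largest rises were those of Cidec (5.62 ± 0.15, log2 ± SE, adjusted p = 6.48e-32), a lipid droplet protein, Fgf21 (3.95 ± 0.25, 3.56e-18), a fasting hormone of the liver, and Acot1 (2.98 ± 0.15, 5.03e-22), a cytosolic acyl-CoA thioesterase. The fall was that of Fabp1 (-0.38 ± 0.10, 0.000532), which binds fatty acids in the cytosol. Beside these, Cyp4a14 stood between Cidec and Fgf21 in size. Of 13 listed genes for the receptor, its partners and cofactors, 11 rose, 1 fell and 1 did not pass, among them Ppargc1a (1.73 ± 0.11, 1.29e-17), a coactivator, as a rise and Ppard (-1.14 ± 0.06, 8.22e-22), a related receptor, as the fall.

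Downstream of omega-hydroxylation, 15 of 25 listed genes rose, 5 fell and 5 did not pass, with a median of 0.59. Among all genes 29.5% rose and 32.9% fell. Ehhadh, the peroxisomal bifunctional enzyme that shortens dicarboxylic acids, rose by 2.43 ± 0.08 (adjusted p = 7.97e-29), Acot3, a peroxisomal thioesterase, by 2.13 ± 0.20 (1.28e-12), and Por, the reductase that passes electrons to microsomal P450 enzymes, by 1.67 ± 0.07 (1.27e-25). The falls included Adh4 (-1.30 ± 0.06, 7.01e-23) and Adh1 (-0.94 ± 0.07, 6.91e-16), alcohol dehydrogenases, and Cyb5r3 (-1.19 ± 0.06, 1.07e-21), which reduces cytochrome b5. Of the 10 other Cyp4 genes tested, 5 rose, 3 fell and 2 did not pass, with a median of 0.14. Beside the shares of all genes, the counts of these 10 genes are no result about them. Cyp4f14 had the largest fall (-1.71 ± 0.06, 1.21e-26) and Cyp4f17 the largest rise (0.81 ± 0.05, 8.05e-20), so none of them came near the size of the Cyp4a10 or Cyp4a14 change.

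**Figure D5:**
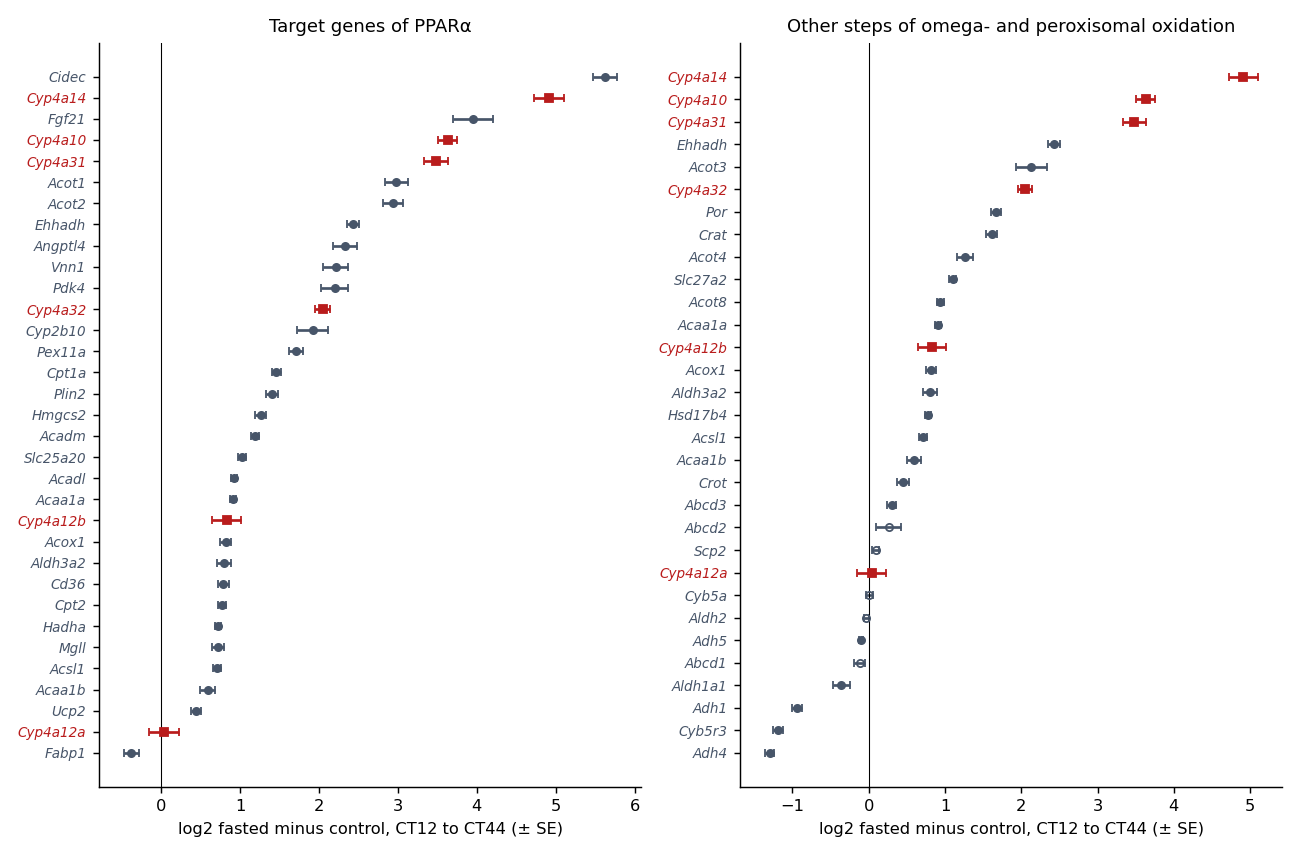
Fasting effect (log2 fasted minus control, CT12 to CT44, ± SE) of the tested target genes of PPARα (left) and of the other genes of omega- and peroxisomal oxidation (right) in grey, filled where the adjusted p was under 0.05, with the 6 Cyp4a genes as red squares that carry no test. Cyp4a14 at 4.91 lies below Cidec at 5.62 on the left and above every grey gene on the right.

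For sex, the PPARα list went both ways. In control livers 8 of the 27 targets were higher in females, 9 higher in males and 10 did not pass, with a median near 0. Among all genes 20.6% were higher in females and 18.6% in males. Cyp2b10 (4.09 ± 0.28, adjusted p = 2.04e-16), a P450 of drug metabolism, and Acot2 (1.30 ± 0.18, 6.25e-08), a mitochondrial thioesterase, were among the former, and Cidec (-1.61 ± 0.23, 1.11e-07) among the latter. The fasting response was more positive in females for 5 targets, led by Cidec (2.04 ± 0.29, 7.58e-06), more positive in males for 1 (Acsl1, -0.37 ± 0.10, 0.0137) and not shown to differ for 21. In the omega-oxidation list of 25 genes, 3 were more positive in females and 8 in males, the latter led by Acot3 (-3.33 ± 0.40, 5.35e-07). Acot3 is also on the list of female-biased genes and was higher in control females by 4.90 ± 0.31. Among all genes the response was more positive in females for 5.35% and in males for 7.02%.

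Most male-biased liver genes on the list fell in the fast. All 15 on the list were higher in control males, as were 18.6% of all genes. With fasting 11 of them fell, 2 rose and 2 did not pass (median -0.86), where 32.9% of all genes fell and 29.5% rose. The largest falls were those of Hsd3b5 (-4.62 ± 0.26, adjusted p = 7.31e-20), a steroid enzyme, and Selenbp2 (-3.02 ± 0.15, 2.98e-22). The late response was lower than the early one for 9 of the 15, with a median of -1.25 (log2), and for 11.3% of all genes. Of the 17 female-biased genes, 16 were higher in control females, as were 20.6% of all genes. With fasting 5 of the 17 rose, 1 fell and 11 did not pass. The 5 rises are near the 29.5% of all genes that rose and are no result about this list. Among 11 regulators of growth hormone and androgen signalling, 7 fell, including Ghr, the growth hormone receptor (-0.87 ± 0.06, 3.02e-16), and 2 rose, including Cux2, a female-biased repressor (0.88 ± 0.25, 0.0019).

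The genes whose 40 group means ran most like those of a member were sought among 11570 genes, as a description, since all points share treatment, time and sex. Slc27a1, a fatty acid transporter, led for Cyp4a10 (Pearson r = 0.96) and Cyp4a31 (0.97), and Acadm, of beta-oxidation, was among the 5 closest to both (0.95 and 0.96). The other 3 were Ehhadh, Psap, which encodes a lysosomal protein, and Acadl for Cyp4a10 (0.95 each), and Hadhb (0.97), Hadha (0.96) and the pseudogene copy Hadhb-ps (0.96) for Cyp4a31. For Cyp4a14 the closest were Psap (0.95), Slc27a1 (0.94), Mat1a (0.94), the liver enzyme that makes S-adenosylmethionine, Pctp (0.94) and Apoa4 (0.94). Cyp4a32 had a different set, Smim13 (0.92), Brap (0.91), Ilrun (0.91), Kcmf1 (0.91) and Ngly1 (0.90). Cyp4a12a and Cyp4a12b ran with the male-biased Cyp2d9 (0.99 for both), the Y-linked Ddx3y (0.99 for both), Mup7 (0.99 and 0.97) and Mup20 (0.98 and 0.97), with Gstp-ps as the fifth for Cyp4a12a (0.98) and Scp2 for Cyp4a12b (0.97).

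The 6 genes together took 0.0316% to 0.230% of all counts in control livers from CT12 and up to 1.76% in a fasted male and 2.01% in a fasted female. Within that, the mix changed. Cyp4a14 made up 27.6% ± 10.6 (SD, n = 18) of the summed reads of Cyp4a14 and Cyp4a10 in control males and 50.5% ± 4.83 in control females, and 57.7% ± 12.5 and 62.6% ± 6.22 in fasted males and females. Cyp4a32 made up 17.4% ± 8.84 of the reads of Cyp4a10, Cyp4a31 and Cyp4a32 in control males and 4.05% ± 2.11 in control females, and 5.25% ± 6.19 and 2.54% ± 3.05 in fasted males and females. The fasted medians were lower, at 3.01% and 1.499%, and the CT12 livers had 13.7% and 27.3% in males and 6.49% and 13.6% in females.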

How the data were processed

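Livers of 80 mice were sequenced as stranded, polyadenylated, paired-end RNA libraries. The authors deposited raw counts per gene and per exon bin, whole numbers without normalisation, and the submitters' processing notes name Trimmomatic, HISAT2, DESeq2 and the build GRCm39. The counting program and its treatment of reads that fit several genes are not given in the sources used here. Treatment, time and sex were taken from the library titles, with which the detailed labels disagree for 40 libraries on sex and 40 on treatment. The article is a review that states no methods for these data, so the design of each test is chosen here. The 6 members, the gene lists and the tests were chosen with earlier results of these data known.

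Genes were filtered with filterByExpr, scaled by TMM and fitted with edgeR 4.0.16 (glmQLFit, R 4.3.3) with a mean for each of 40 groups of treatment, time and sex. An adjusted p (Benjamini-Hochberg over all genes tested) under 0.05 counted as passed. The control rhythm was a cosine of 24 h with sex as a term. Levels are CPM on TMM-scaled libraries, and log2 CPM had a prior count of 2. Correlations between members used log2 CPM less the group mean, with one member permuted within groups. Scripts were tested on simulated data. Sequences and lengths are from GENCODE M21. Exon bins needed a mean of 10 counts in each treatment, and 4 columns (fasted CT40) were left out because they did not match the gene table. The text names the 6 members, at most the 3 largest rises and 3 largest falls of each list in a comparison, and the 5 genes most like each member. Alternatives were DESeq2 size factors, other filters, limma voom 3.58.1, DESeq2 1.42.0, leaving out each replicate, a replicate block, summed near-identical genes and each sex alone.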

Additional observations from a re-analysis of the deposited data

Results flagged for a closer look

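4 results stood apart by fixed criteria. In fasted males at CT28, Cyp4a10 in male 1 was at 11.85 (log2 CPM), below the other 3 mice of its treatment and time, which lay between 12.08 and 12.12. It was the 1 mouse singled out by the gap to its neighbour in 120 groups of 4 mice. Each group pooled 2 males and 2 females. Where the sexes differ widely, as for the Cyp4a12 genes, a single mouse can hardly stand out. No number by chance is therefore set against this count. The fasting response of Cyp4a14 was lower in females than in males by -2.05 (log2), and that of Cyp4a10 by -0.95, by the test of the difference itself. The growth of the Cyp4a14 response from early to late fast was lower in females by -3.41 (log2), a test added after the sexes had been seen apart.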

How the results depend on the processing

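The mean fasting effect of Cyp4a14 was 4.91 (log2) and kept within 4.89 to 5.01 without any one replicate set, with 5.94 in males alone and 3.89 in females alone. Summing near-identical genes turned the sex differences of Cyp4a32 to those of the sum, which is mostly Cyp4a10, 1.04 in controls and -0.75 in the fasting response, and males alone turned the late-against-early value of Cyp4a12a to -0.81. Shares of all genes were not worked out for most of the fits below, so counts of members there are no result about the members. The numbers of members past the threshold moved as follows. Without a filter on low counts they were 4 at CT8, 5 for late against early, 6 for the sex difference in the response and 6 for the sex difference in late against early, with 853 genes called at CT8 and 987 for the last. The standard errors of that fit were smaller (0.072 against 0.231 for Cyp4a14 in controls), and the cause was not tested. With at least 10 counts in every library, which drops the Cyp4a12 genes, 3 differed by sex in controls and 3 by sex in late against early (267 genes). DESeq2 gave 3 members and 534 genes for the latter and 556 genes at CT8, and limma voom gave 0 members for the same test and 4 genes at CT8. Leaving out the ribosomal-rich CT8 library gave 11 genes at CT8.

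Males alone gave 5 members and 1819 genes for late against early, 3508 genes across times, 2 members and 5043 genes with a control rhythm and 0 genes at CT8. Females alone gave 0 members and 2717 genes for late against early, 0 members and 1899 genes across times, 4538 genes with a rhythm and 509 at CT8. Cyp4a12b was not tested for a rhythm in females alone. Without one replicate set, members called were 0 to 1 at CT8, 2 to 5 across times, 1 to 4 for late against early, 1 to 4 for the sex difference in the response and 0 to 1 for the sex difference in late against early, and genes called were 0 to 2123, 1186 to 7051, 1449 to 4095, 238 to 2473 and 0 to 806. The sex difference in controls kept 5 members in each of these fits. Of the 7 pairs of members that correlated, 1 passed in control livers alone and 0 in fasted livers alone, with fewer livers in each.

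Replicate numbers did not pair the mice, since the correlation of same-numbered deviations had a median of 0.002 in males and -0.001 in females. With a replicate block within sex the fasting effect of Cyp4a14 was 4.91, the count across times was 3 (Cyp4a32 at adjusted p = 0.0513) and that for the sex difference in the response was 3 (Cyp4a12a at 0.0498). The block changed no other call of a member. Depth limits mainly the Cyp4a12 genes in females, with 1 to 105 reads per liver and gene from CT12 on and up to 115 at CT8.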
